A study of Mus musculus with 44 samples.

Results

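The 10 genes described here are markers of the CA2 and CA3 pyramidal neurons of the hippocampus. Rgs14, Pcp4, Amigo2, Cacng5 and Map3k15 mark CA2, and Bok, Cpne4, Grik4, Coch and Nectin3 mark CA3. They were chosen by name, and their rows were found among the 55335 genes of the count table by Ensembl identifier through the GENCODE annotation of GRCm38. All 10 were in the table and passed the filter on low counts in every comparison. The libraries came from the hippocampi of male Emx1-NuTRAP mice, a cross of Emx1-IRES-Cre with the NuTRAP reporter. Cre from the Emx1 locus labels ribosomes and nuclei wherever Emx1 has been active, in excitatory neurons above all but also neural progenitors and their descendants, and every group carries both alleles. TRAP-seq, the sequencing of mRNA pulled down with the tagged ribosomes, was performed on 1 mouse per library. For early-life exercise (ELE), juvenile mice could run freely on a wheel between postnatal days 21 and 41, whereas sedentary littermates were housed without one. In SIT, the simultaneous isolation of nuclei and tagged ribosomes from 1 homogenate, both hippocampi of a mouse were pooled, and these libraries comprised 4 ELE and 4 sedentary mice. Separate isolation used 1 hippocampus for RNA, and comprised 3 ELE and 3 sedentary mice for the left side and the same for the right. The study compared 3 ELE and 2 sedentary SIT libraries, so that 17 of 20 libraries enter the main comparisons.

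CA3 pyramidal neurons receive the mossy fibres of the dentate gyrus and excite one another and CA1, while the small CA2 field between CA3 and CA1 resists long-term potentiation and is known for its part in social memory. The genes that mark both fields are studied as labels of cell identity, and many of them act at synapses. Because the libraries hold the tagged neurons of the whole hippocampus, fewer cells of a field and less RNA per cell cannot be told apart in any value below. Among the CA2 markers, Rgs14 encodes a regulator of G-protein signalling that limits plasticity in CA2, Pcp4 a calmodulin-binding peptide, Amigo2 an adhesion molecule with immunoglobulin-like domains, Cacng5 an auxiliary subunit of AMPA receptors, and Map3k15 a kinase of the MAP kinase cascade. Among the CA3 markers, Grik4 encodes a kainate receptor subunit, Cpne4 a calcium-dependent phospholipid-binding copine, Bok a member of the BCL2 family, Nectin3 a cell adhesion molecule of synaptic junctions, and Coch the extracellular matrix protein cochlin.

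The genes lie on 8 chromosomes and all are protein coding. In GRCm38, Rgs14 spans chr13:55369732-55384687 on the plus strand with 4239 exonic bases, and Pcp4 spans chr16:96467606-96525793 on the plus strand with 1026. Amigo2 lies at chr15:97244125-97247287 and Cacng5 at chr11:107874605-107915055, both on the minus strand. Map3k15 lies at chrX:159988433-160123351, Bok at chr1:93685660-93695764, Cpne4 at chr9:104547286-105034544 and Coch at chr12:51593341-51605771, all on the plus strand. Grik4 at chr9:42518135-42944493 and Nectin3 at chr16:46387706-46498525 lie on the minus strand. Some exons are shared with another gene of the same strand, 243 bases between Pcp4 and Igsf5 and 59 bases between Grik4 and the small RNA gene Gm24420, and read pairs falling there cannot be assigned by position. Map3k15 shares 603 exonic bases with Pdha1 and Amigo2 58 with Pced1b on the opposite strand, and the counting took strand into account.

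RefSeq promoter windows in GRCm38.p6 were found for 8 of the 10 genes. The sequences shown are the bases before the start of Bok and Grik4, the pair that varied together most closely among mice, and of Amigo2 and Coch, which were called for ELE in 1 comparison each. Each is written 5′ to 3′ on the strand of its gene, and capitals mark GGGCGG, the GC box bound by Sp-family factors, on either strand (CCGCCC on the other). The stretches are chr1:93685325-93685574 for Bok, chr9:42944494-42944621 for Grik4, chr15:97247288-97247537 for Amigo2 and chr12:51593091-51593340 for Coch. For Grik4 only 128 of the 250 bases of the window chr9:42944372-42944621 are shown, those that lie before the GENCODE gene.
Bok: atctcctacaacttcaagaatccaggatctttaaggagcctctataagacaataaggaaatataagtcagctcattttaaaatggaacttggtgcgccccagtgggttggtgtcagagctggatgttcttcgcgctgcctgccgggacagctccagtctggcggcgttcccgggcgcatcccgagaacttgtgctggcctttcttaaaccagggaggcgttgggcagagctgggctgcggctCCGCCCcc
Grik4: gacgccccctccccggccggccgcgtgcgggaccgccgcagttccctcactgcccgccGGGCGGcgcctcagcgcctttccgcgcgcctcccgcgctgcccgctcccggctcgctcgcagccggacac
Amigo2: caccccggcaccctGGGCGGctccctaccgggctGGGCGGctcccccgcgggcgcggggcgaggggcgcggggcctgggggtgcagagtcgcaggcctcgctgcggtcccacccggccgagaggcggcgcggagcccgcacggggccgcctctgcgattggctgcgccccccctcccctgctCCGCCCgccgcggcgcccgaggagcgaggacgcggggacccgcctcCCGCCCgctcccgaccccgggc
Coch: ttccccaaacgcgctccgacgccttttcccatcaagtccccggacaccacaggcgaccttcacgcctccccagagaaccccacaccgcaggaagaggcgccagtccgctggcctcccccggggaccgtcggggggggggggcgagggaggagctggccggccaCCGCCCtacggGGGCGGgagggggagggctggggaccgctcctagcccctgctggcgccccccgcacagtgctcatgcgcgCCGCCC
Within these letters the GC box stood 1 time each for Bok and Grik4, 4 times for Amigo2 and 3 times for Coch. Over the 250 bases before the start, 7 of the 10 windows of the 8 genes, 1 for each gene but Pcp4, held at least 1 GC box, against 32.7% of all 32851 RefSeq windows of that length. The E-box CANNTG, which neuronal basic helix-loop-helix factors bind, was found in 4 of the 10 windows, those of Cpne4 and Cacng5, and in 66.2% of all windows, and TATAAA in none of the 10 and in 12.4% of all windows. The share of G and C over the windows of the markers ran from 46.8% for Pcp4 to 84.0% for Amigo2, with a median of 52.4% over all windows. These are descriptions of the letters, and binding was not measured for them here.

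Between 45895097 and 65767802 read pairs were counted per library. In all 16 pairs of replicates within a group the counts differed beyond sampling noise, so none was treated as a repeat of another. The excitatory neuron genes Slc17a7, Camk2a, Neurod6 and Emx1 together held between 6011 and 9322 CPM (counts per 1000000, with library sizes adjusted by the TMM method) in the 17 libraries. The inhibitory neuron genes together held between 40.5 and 76.2 CPM and the microglial genes between 2.19 and 5.62. Astrocyte genes summed to between 1588 and 4935 CPM and oligodendrocyte genes to between 1808 and 3053. A pair of sedentary SIT libraries that the study did not compare, NT7.2.3 and NT7.2.4, stood apart from the other 18. Mitochondrial genes took 8.64% and 9.64% of their counts against at most 0.523% elsewhere, and their inhibitory neuron genes summed to 817 and 854 CPM. The ELE library TG7.4.2, which the study compared, had 0.731% of its counts on nuclear rRNA genes, against at most 0.172% in the others. The part of this in the values of TG7.4.2 was not tested.

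Levels differed widely among the markers. Per kilobase of exon, the median over the 17 libraries was 88.3 CPM for Bok, 59.5 for Pcp4, 23.0 for Rgs14, 21.3 for Cpne4 and 16.9 for Grik4. It was 6.95 for Amigo2, 3.68 for Nectin3, 1.82 for Cacng5, 0.519 for Coch and 0.275 for Map3k15. The fields were mixed in this order, with the CA2 marker Pcp4 next to the top and the CA3 marker Coch next to the bottom. The order of neighbours was not fixed throughout, and Bok exceeded Pcp4 in 14 of 17 libraries, Rgs14 exceeded Cpne4 in 13, and Cpne4 exceeded Grik4 in 15. The ranges did not overlap between Pcp4 and Rgs14, between Grik4 and Amigo2, or between Nectin3 and Cacng5, and the ranges of the other neighbours did. Coch rested on between 52 and 422 read pairs per library and Map3k15 on between 38 and 140, so these low genes carried more counting error than Bok, with at least 6373. The plot of levels per exonic length shows the descending order and the wide spread of Coch.

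**Figure D1:**
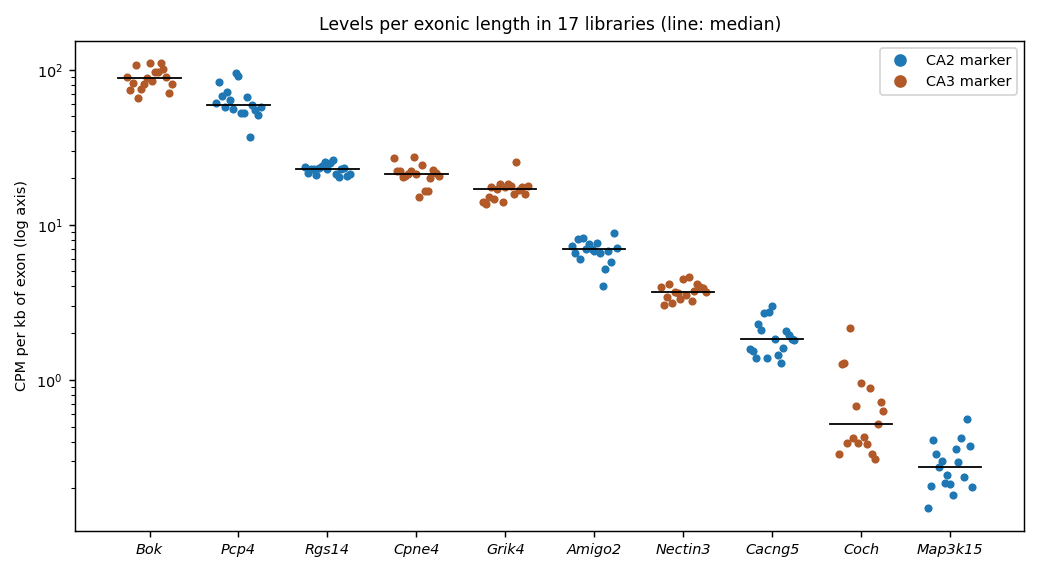
Level of each marker per exonic length (CPM per kb of exon, log axis) in the 17 libraries compared, with points for libraries, colours for CA2 and CA3 markers and a line at the median. The medians fall from 88.3 for Bok to 0.275 for Map3k15.

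The markers also differed in how steady they were. The SD within groups on the log2 scale was 0.11 for Rgs14, 0.17 for Nectin3, 0.20 for Bok, Cpne4 and Grik4 alike, and 0.24 for Amigo2. It was 0.28 for Pcp4, 0.32 for Cacng5, 0.33 for Map3k15 and 0.66 for Coch. Rgs14, the plasticity regulator of CA2, stayed between 85.6 and 110 CPM in all 17 libraries, a 1.29-fold range. Coch ran from 0.921 to 6.47 CPM, a 7.03-fold range, and its highest value was that of a single left ELE mouse, TG7.3.2. Nectin3 lay between 38.8 and 58.3 CPM, Cpne4 between 82.8 and 151, and Grik4 between 80.7 and 151. The plot of CPM by library shows each marker in its 6 groups.

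**Figure D2:**
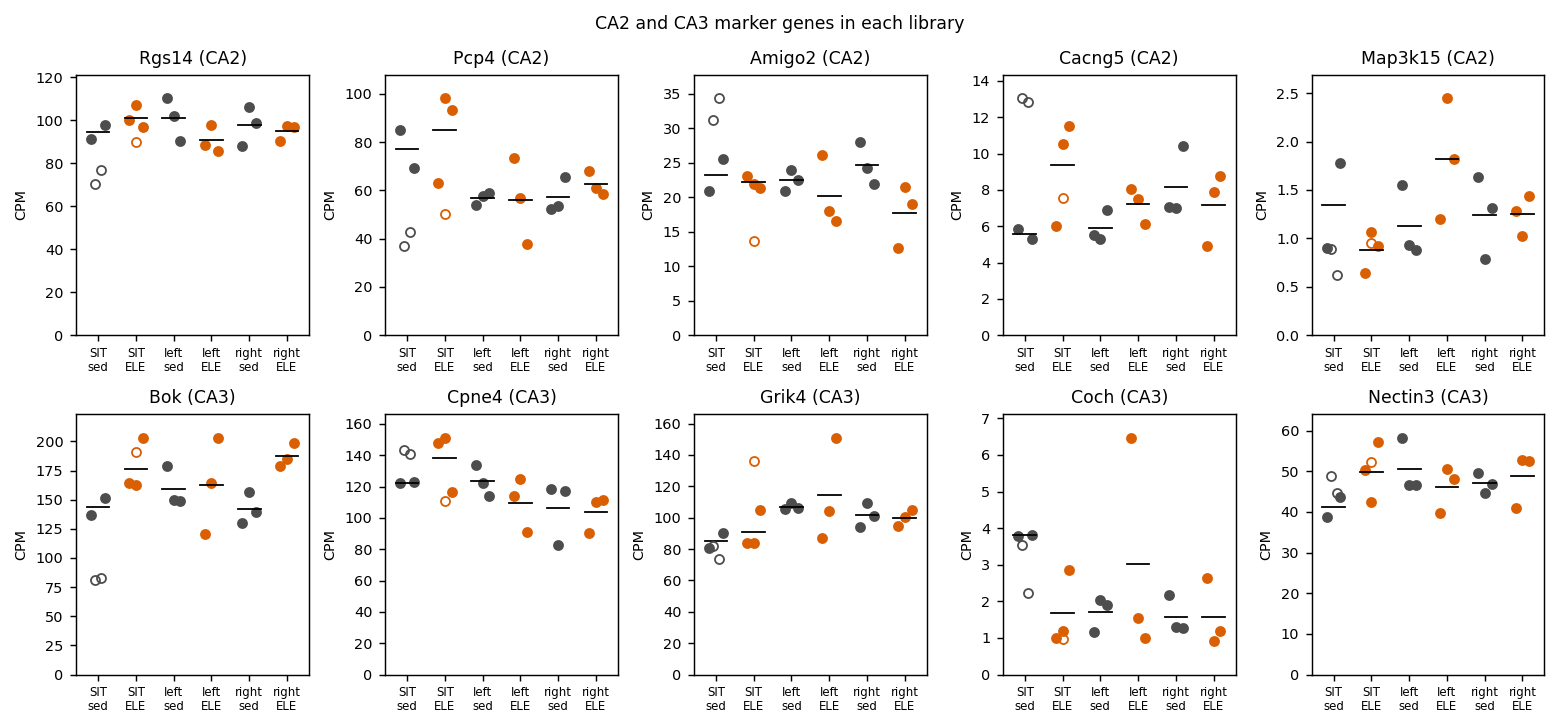
CPM of each marker in each library, by isolation, side and exercise (grey, sedentary; orange, ELE), with a line at the mean of the libraries compared and open circles for the 3 SIT libraries that the study did not compare. In the right hippocampus the 3 ELE mice lie above the 3 sedentary mice for Bok and below them for Amigo2.

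Whether ELE changed these markers was asked first in the simultaneous isolations, with 3 ELE and 2 sedentary mice. A CA2 marker rose and a CA3 marker fell, so that 2 of 10 were called at an unadjusted p under 0.05 with an absolute log2 fold change above 0.39, the threshold of the study's methods rounded to 2 digits (a figure legend of the study gives a slightly lower one), beside 3.61% of the 18238 genes tested. Cacng5, the gene of an auxiliary AMPA receptor subunit, was at 6.03, 10.6 and 11.5 CPM in the ELE mice and at 5.84 and 5.31 in the sedentary mice. The groups did not overlap, although the lowest ELE mouse, NT6.303, was close to the higher sedentary one. The mean was 9.37 ± 2.93 CPM (SD, n = 3) against 5.58 ± 0.377 (SD, n = 2), and the log2 fold change was 0.75 ± 0.29 (SE; edgeR quasi-likelihood test, adjusted p = 0.905), with a 95% interval from 0.11 to 1.38. Coch, the cochlin gene, was at 0.999, 1.18 and 2.87 CPM in the ELE mice and at 3.79 and 3.82 in the sedentary mice. All ELE mice lay below both sedentary mice. The log2 fold change of Coch was -1.18 ± 0.46 (SE; edgeR adjusted p = 0.905), with a 95% interval from -2.19 to -0.17. By edgeR no marker passed at an adjusted p under 0.05 in this or any other ELE comparison. The libraries of a group are separate mice.

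Bok was the third marker whose SIT groups did not overlap, beside 22.1% of all genes tested. It was at 162, 164 and 203 CPM in the ELE mice and at 137 and 151 in the sedentary mice, and its log2 fold change of 0.29 ± 0.12 (SE; edgeR adjusted p = 0.905, unadjusted p under 0.05) was below the fold threshold. The other 7 markers were not called. Rgs14 had a log2 fold change of 0.10 with a 95% interval from -0.13 to 0.32, Grik4 one of 0.09 from -0.20 to 0.37, and Map3k15, with few counts, one of -0.61 from -1.88 to 0.66. Nectin3 stood at 0.28, Cpne4 at 0.18, Pcp4 at 0.14 and Amigo2 at -0.07. The median log2 fold change was 0.10 over the 5 CA2 markers and 0.18 over the 5 CA3 markers, against 0.00 over all genes tested.

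These calls did not hold over all choices of SIT mice. Leaving out NT6.305 or NT6.306 leaves 1 sedentary mouse, and its spread is then assumed to be that of the ELE mice. Cacng5 lost its call without TG7.4.1 or TG7.4.2, and also without NT6.305 or NT6.306, with log2 fold changes from 0.57 to 0.82, and Coch lost it without NT6.303 or TG7.4.1, and also without NT6.305 or NT6.306, with log2 fold changes from -1.19 to -0.92. With all 8 SIT libraries, 3 of 10 markers were called, beside 7.67% of genes. Coch again fell, by 1.14 on the log2 scale (SE 0.40, edgeR adjusted p = 0.480). Bok rose by 0.68 (SE 0.21, edgeR adjusted p = 0.440) and Amigo2 fell by 0.47 (SE 0.21, adjusted p = 0.538), and Cacng5 had a log2 fold change of -0.04. The added sedentary libraries NT7.2.3 and NT7.2.4 held 80.7 and 83.0 CPM of Bok, 31.2 and 34.35 of Amigo2 and 13.0 and 12.8 of Cacng5. For all 3 genes these values lie outside the range of the 5 libraries that the study compared. The added ELE library NT6.304 held 13.7 CPM of Amigo2, below the 20.9 to 25.6 of those 5 libraries, 190 of Bok and 7.58 of Cacng5. NT7.2.3 and NT7.2.4 are also the libraries with high mitochondrial and inhibitory neuron counts, and their 4 microglial genes summed to 154 and 162 CPM, against at most 7.91 in the other 18 libraries. The part of these in the values above was not tested. Among the 4 mice numbered NT6, Coch fell by 1.94 (SE 0.36, edgeR adjusted p = 0.648) and Pcp4 fell by 0.44 (SE 0.18, adjusted p = 0.648), beside 6.61% of genes called. Cacng5 had a log2 fold change of 0.29 ± 0.26 (SE; edgeR adjusted p = 0.751) among them and was not called. Both sedentary mice that the study compared are numbered NT6, as is the ELE mouse with 6.03 CPM of Cacng5, while the ELE mice with 10.6 and 11.5 are numbered TG7.4, and the part of the mouse number in this result was not tested further.

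In the right hippocampus, with 3 mice in each group, 1 CA3 marker rose and 1 CA2 marker fell, beside 1.96% of the 17570 genes tested. Bok was at 179, 185 and 198 CPM in the ELE mice and at 130.3, 139 and 156 in the sedentary mice. Every ELE mouse exceeded every sedentary mouse. The means were 187 ± 9.89 and 142 ± 13.1 CPM (SD, n = 3), a log2 fold change of 0.40 ± 0.10 (SE; edgeR adjusted p = 1.0) with a 95% interval from 0.19 to 0.61. Amigo2, the adhesion gene of CA2, was at 12.7, 19.0 and 21.4 CPM in the ELE mice and at 21.98, 24.2 and 28.0 in the sedentary mice. These groups did not overlap either, and ELE mouse TG9.1.3 was the lowest of all 17 libraries. The means were 17.7 ± 4.51 and 24.7 ± 3.02 CPM (SD, n = 3), and Amigo2 fell by 0.48 on the log2 scale (SE 0.19, edgeR adjusted p = 1.0), with a 95% interval from -0.90 to -0.06. The other 8 markers had right log2 fold changes between -0.18 for Cacng5 and 0.13 for Pcp4.

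Bok and Amigo2 were the 2 markers whose right groups did not overlap, beside 7.69% of all genes tested. Amigo2 lost its call without TG9.1.3 or TG9.2.3, at log2 fold changes of -0.29 and -0.38. Bok stayed at an unadjusted edgeR p under 0.05 without any 1 library, but its fold change dropped under the threshold without TG9.2.3 or TG7.3.1, to 0.34 at the lowest, and, by less than the rounding of the threshold, without TG7.3.3. Choroid plexus genes moved in the same comparison. All 4 that could be tested fell, Ttr, Folr1, Kl and Clic6, with Kcnj13 at 0 in every right ELE library. The 5 genes of the list summed to 17.3, 29.2 and 42.7 CPM in the right ELE mice. In the right sedentary mice they summed to 35.1, 83.6 and 1156, so the groups overlapped. The sum of 1156 was that of TG9.2.3, which also had the highest Amigo2 of the right mice, at 28.0 CPM. Over 17 libraries, deviations of Amigo2 from its group means correlated with those of the choroid plexus list at r = 0.56 and rho = 0.58 (permutation p = 0.0317 and 0.0340, adjusted p = 0.423 and 0.446 over 120 relations), and at 0.44 without the 2 farthest libraries. For Bok, r was -0.36 (permutation p = 0.424). The part of these genes in the Amigo2 and Bok results was not tested.

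**Figure D3:**
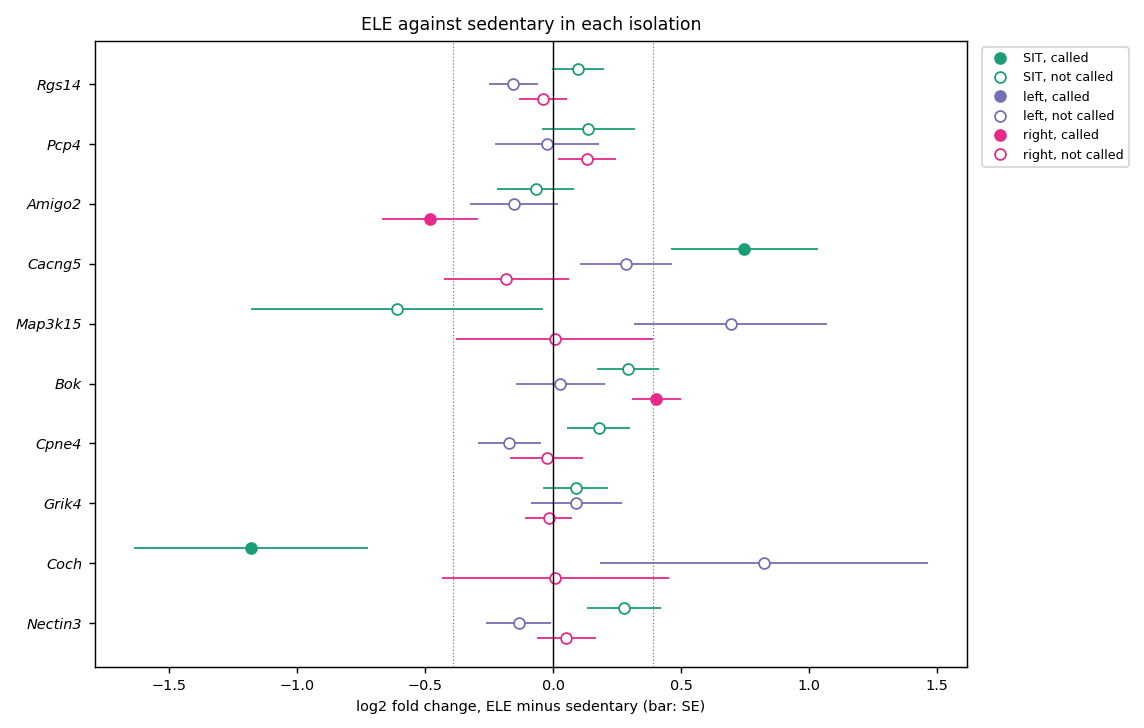
Log2 fold change of each marker, ELE minus sedentary, with its SE as a bar, for SIT (3 against 2 mice), left and right (3 against 3 mice each). Filled points were called and dotted lines mark the fold threshold. The filled points are Cacng5 and Coch in SIT and Amigo2 and Bok on the right side.

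In the left hippocampus no marker was called, beside 2.05% of the 17750 genes tested, and none of the 10 had groups that did not overlap, beside 10.8% of all genes. By edgeR 0 markers had an unadjusted p under 0.05, where 699 genes of the whole table did, and DESeq2 called 0 markers. Coch had the largest log2 fold change, 0.82 ± 0.64 (SE; edgeR adjusted p = 0.960), and rested on 1 mouse. Its level was 6.47 CPM in the left ELE mouse TG7.3.2, 1.56 and 0.997 in the other ELE mice, and 1.16, 1.89 and 2.05 in the sedentary mice. Without TG7.3.2 the log2 fold change was -0.42 and not called, and without TG9.1.4 it was 1.24 and called. The choroid plexus list summed to 1007.5 CPM in TG7.3.2, to 1032 and 1268 in the sedentary mice TG7.3.4 and TG9.1.2, and to at most 55.2 in the other 3 left mice. Over the 17 libraries Coch with this list had r = 0.54 and rho = 0.36 (permutation p = 0.105 and 0.237, adjusted p = 0.575 and 0.647). Without the 2 farthest libraries r was 0.27. The part of the choroid plexus genes in the Coch values was not tested. Map3k15 was at 1.2, 1.82 and 2.45 CPM in the ELE mice and at 0.884, 0.937 and 1.55 in the sedentary mice, a log2 fold change of 0.69 ± 0.38 (SE; edgeR adjusted p = 0.960). It was called without TG7.3.2, at 0.92, and without TG9.1.2, at 0.996. Bok, called on the right, was at 120.5, 164 and 203 CPM in the left ELE mice and at 149, 149.5 and 179 in the left sedentary mice. Its left groups overlapped, and the log2 fold change of 0.03 had a 95% interval from -0.37 to 0.43. Amigo2 had a left log2 fold change of -0.15 (95% interval from -0.55 to 0.24), with 26.1 CPM in TG7.3.2 against 16.5 and 18.1 in the other ELE mice.

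Over both hemispheres together, adjusted for side in the 12 separately isolated libraries, none of the 10 markers was called, beside 1.99% of the 18810 genes tested. Amigo2 came nearest, with a log2 fold change of -0.32 ± 0.14 (SE; edgeR adjusted p = 0.924), the 1 marker at an unadjusted p under 0.05 but below the fold threshold, and DESeq2 called none. Without TG7.3.2 it was -0.43 and called. Bok had a log2 fold change of 0.22 ± 0.11 (SE; edgeR adjusted p = 0.924). No difference between the sides in the response to ELE was called for any marker, beside 2.2% of genes, with 0 markers at an unadjusted edgeR p under 0.05 and 0 called by DESeq2. For Bok the right response minus the left was 0.37 with a 95% interval from -0.08 to 0.83, and it was 0.57 and called without the left ELE mouse TG9.1.4. For Amigo2 it was -0.33 (interval from -0.92 to 0.27). The calls in the right hippocampus are therefore not shown to be particular to that side.

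Side itself was compared in the same 12 libraries. No marker differed between right and left when adjusted for exercise, beside 1.15% of genes called, with 0 markers at an unadjusted edgeR p under 0.05 and 0 called by DESeq2. The largest right minus left log2 differences were -0.52 for Coch (95% interval from -1.43 to 0.39) and 0.23 for Cacng5 (from -0.13 to 0.59). Rgs14, Amigo2, Bok and Nectin3 had differences between -0.02 and 0.02, and the widest of their intervals, that of Amigo2, ran from -0.32 to 0.28. Within sedentary mice, Cacng5 was higher on the right, at 6.98, 7.06 and 10.4 CPM against 5.31, 5.54 and 6.90 on the left, beside 1.67% of genes called. The right mice all lay above the left mice, the closest pair by a small margin. Its log2 difference was 0.46 ± 0.20 (SE; edgeR adjusted p = 1.0). Within ELE mice it was -0.01, and 0 markers were called or had an unadjusted edgeR p under 0.05, beside 1.36% of genes called. That the side difference of Cacng5 depends on exercise was not shown, with an interaction of -0.47 and an interval from -1.17 to 0.23.

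The isolation was then compared, SIT against separate, with adjustment for exercise. Pcp4, the calmodulin-binding peptide gene of CA2, was higher in SIT and was the only marker of 10 called, beside 14.1% of the 20345 genes tested. It was at 62.9, 69.2, 84.9, 93.3 and 98.1 CPM in the 5 SIT libraries and between 37.7 and 73.2, with a median of 58.1, in the 12 separate ones. The ranges overlapped, with the left ELE mouse TG7.3.2, the right ELE mouse TG9.1.3 and the right sedentary mouse TG7.3.3 above the lowest SIT library. The log2 difference of Pcp4 was 0.48 ± 0.11 (SE; edgeR adjusted p = 0.00378), and it was 0.44 in sedentary mice and 0.51 in ELE mice, both called. Cpne4, at 0.25 ± 0.10 (SE; edgeR adjusted p = 0.0650), and Grik4, at -0.26 ± 0.09 (SE; adjusted p = 0.0435), were below the fold threshold. Coch was higher in SIT among sedentary mice, at 3.79 and 3.82 CPM against a range from 1.16 to 2.17 in the 6 separate libraries. That log2 difference was 1.21 ± 0.27 (SE; edgeR adjusted p = 0.0116), beside 15.4% of genes called. Among ELE mice Map3k15 was lower in SIT by 0.81 on the log2 scale (SE 0.37, edgeR adjusted p = 0.195), beside 12.7% of genes called.

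Isolation, the pooling of both sides and the mice themselves cannot be told apart in this contrast. With all 8 SIT libraries Pcp4 lost its call at 0.20 ± 0.15 (SE; edgeR adjusted p = 0.423), its levels in the 3 added libraries being 36.9, 42.6 and 50.2 CPM, and 0 markers were called, beside 12% of genes, with Cpne4 and Grik4 at an unadjusted p under 0.05. Within sedentary and within ELE mice Pcp4 lost its call too, at 0.03 and 0.36. In that set Coch among sedentary mice stayed called at 1.02 (adjusted p = 0.0189), Bok was lower in sedentary SIT mice by 0.42 and called, beside 15.7% of genes, and Map3k15 among ELE mice stayed called at -0.78, beside 10.8%. Coch and Map3k15 were not called in the contrast of the 17 libraries adjusted for exercise. In that contrast, leaving out TG7.3.2 brought Coch to 0.69 and leaving out NT6.306 brought Map3k15 to -0.67, both then called.

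The response to ELE differed between isolations for 1 marker, beside 4.58% of genes. The SIT response of Coch minus the separate response was -1.66 ± 0.76 (SE; edgeR adjusted p = 0.890) on the log2 scale, with a 95% interval from -3.26 to -0.07. With all 8 SIT libraries it was -1.64 and called, beside 8.1% of genes. The call was lost without any 1 of the SIT mice NT6.303, TG7.4.1, NT6.305 and NT6.306, the left mice TG7.3.2 and TG9.1.2, or the right mice TG9.1.3, TG9.1.1 and TG7.3.3, and the value nearest 0 was -1.01 without TG7.3.2. Cacng5 had a difference of 0.72 with a 95% interval from -0.0020 to 1.44, and -0.09 with all 8 SIT libraries.

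Covariation among mice was examined on deviations from the group means over the 17 libraries, for 45 pairs of markers. None of the 45 passed at an adjusted p under 0.05, and 3 had an unadjusted permutation p of r under 0.05. The closest pair was Bok with Grik4, a BCL2-family gene and a kainate receptor gene of CA3, at r = 0.90 and rho = 0.82 (two-sided permutation p = 0.00165 and 0.00303, adjusted p = 0.0742 and 0.136). Without the 2 libraries farthest from the median of Bok, r was 0.75, and leaving out each library in turn gave r from 0.82 to 0.96. In the 12 separate libraries r was 0.88 (permutation p = 0.0456), and with all 8 SIT libraries it was 0.61. Both ends of the relation were left ELE mice. TG9.1.4 held 203 CPM of Bok and 151 of Grik4, and TG7.3.2 held 120.5 and 87.2. The astrocyte list summed to 4899 CPM in TG9.1.4 and 2058 in TG7.3.2, and the microglial list to 5.62 and 3.25. Over the 17 libraries r of Bok with the astrocyte list was 0.68 and rho 0.56 (permutation p = 0.0555 and 0.0735, adjusted p = 0.451 and 0.474 over 120 relations), and r was 0.38 without the 2 libraries farthest from the median. For Grik4 r was 0.67 and rho 0.54 (permutation p = 0.0731 and 0.102, adjusted p = 0.549 and 0.514), and r was 0.34 without such libraries. With the microglial list r was 0.59 and rho 0.65 for Bok (permutation p = 0.211 and 0.0389, adjusted p = 0.666 and 0.446) and r was 0.75 and rho 0.70 for Grik4 (permutation p = 0.116 and 0.0304, adjusted p = 0.589 and 0.446), with r of 0.49 and 0.73 without such libraries. The part of these cells in the relation was not tested. The scatter of Bok against Grik4 shows the other libraries between them.

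**Figure D4:**
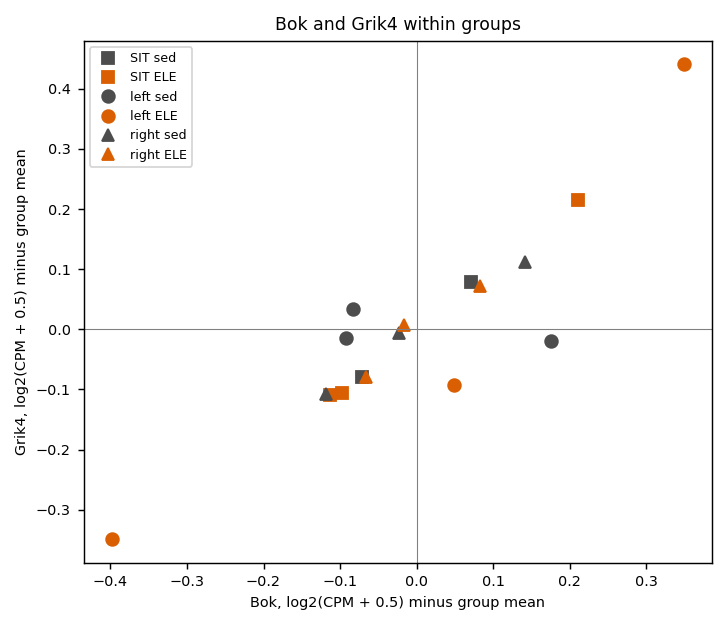
Deviation of Bok and of Grik4 from the mean of the group, on the log2(CPM + 0.5) scale, in 17 libraries, with squares for SIT, circles for left and triangles for right (grey, sedentary; orange, ELE). The points follow a rising line, r = 0.90, with left ELE mice at both ends.

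The other pairs with an unadjusted p of r under 0.05 were Bok with Nectin3, at r = 0.64 and rho = 0.63 (permutation p = 0.0248 and 0.0238, adjusted p = 0.447 and 0.439), and Pcp4 with Cacng5, at r = 0.57 and rho = 0.58 (permutation p = 0.0298 and 0.0363, adjusted p = 0.447 and 0.439). By rho alone, Map3k15 was also under 0.05 with Cpne4 (rho = 0.58, permutation p = 0.0480) and with Nectin3 (rho = 0.54, permutation p = 0.0488). The adjusted p was 0.439 for both. Without the 2 farthest libraries r was 0.65 for Bok with Nectin3 and 0.35 for Pcp4 with Cacng5, and the latter was -0.17 with all 8 SIT libraries. Pairs were then grouped by field. Among the 10 pairs of CA2 markers 8 had r above 0, with a median of 0.09. Among the 10 pairs of CA3 markers 4 did, with a median of -0.26 and a lowest r of -0.60 between Cpne4 and Grik4. Among the 25 mixed pairs 15 did, with a median of 0.16. The map of correlations shows all 45.

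**Figure D5:**
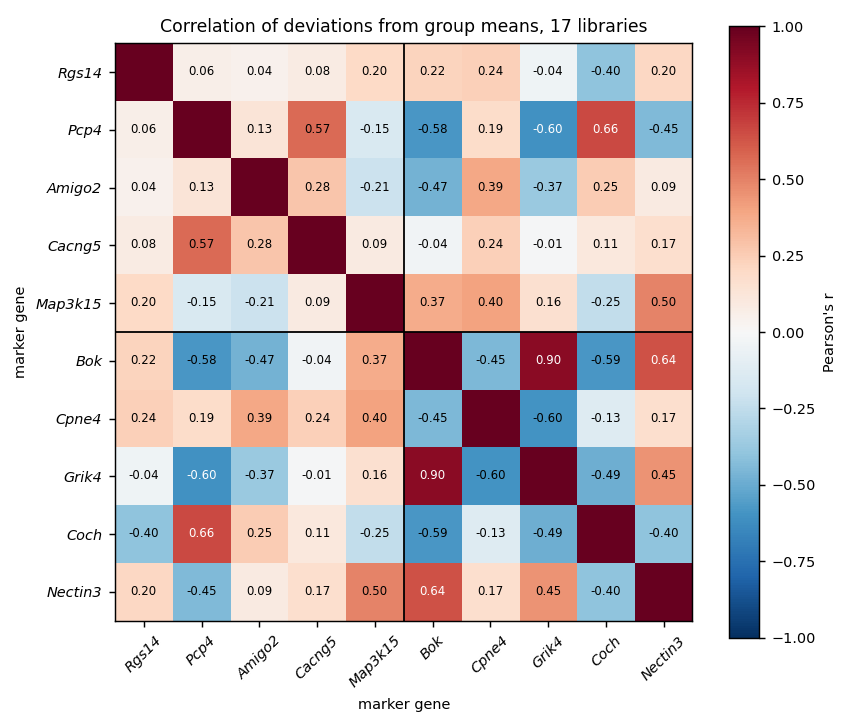
Pearson's r between deviations from group means for each pair of markers over 17 libraries, with CA2 markers first and black lines between the fields. The deepest red cell off the diagonal is Bok with Grik4 (0.90), and Cpne4 with Grik4 is among the blue cells (-0.60).

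Genes with the most similar pattern were taken from the 14105 genes whose mean reached 1 CPM, by Pearson's r of the same deviations over 17 libraries, as a description. Rgs14 was closest to Mocs3 (0.92), Ak5 (0.88) and Nck2 (0.87), and Pcp4 to Ctxn1 (0.92), Dalrd3 (0.91) and Mrps21 (0.91). Amigo2 was closest to Atoh8 (0.94), Tmem237 (0.90) and A730056A06Rik (0.88), Cacng5 to Cand2 (0.89), 6330418K02Rik (0.88) and Dtx3 (0.87), and Map3k15 to Camk1d, Robo1 and 2900026A02Rik (0.86 to 0.85). Among the CA3 markers, Bok was closest to Gpc1 (0.94), Sema7a (0.93) and Cabp7 (0.93), Cpne4 to Arfgef3, Nr3c1 and Unc80 (0.94 to 0.93), and Grik4 to Kremen1, Ptprn and Prex1 (0.95 to 0.94). Coch was closest to Cyp2s1 (0.92), Nupr1l (0.91) and Lypd1 (0.90). Nectin3 was closest to Abca3 (0.92), Zmiz2 (0.86) and Adora1 (0.85), the adenosine receptor gene that is also in the list of other CA2 genes. Each value is the highest found among 14105 genes, so they carry no test.

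Against marker lists of other cells, 120 relations of a marker with the mean log2 level of a list were computed and none passed at an adjusted p under 0.05. The closest was Cpne4 with the dentate granule cell list, at r = 0.86 and rho = 0.87 (permutation p = 0.00116 and 7.20e-04, adjusted p = 0.139 and 0.0864), and r was 0.75 without the 2 farthest libraries. By the p of r, Rgs14 with the striatal list followed at r = -0.76 and rho = -0.72 (permutation p = 0.00837 and 0.0143, adjusted p = 0.423 and 0.446), and r was -0.67 without the 2 farthest libraries. Grik4 with the other CA2 genes had a larger r, at r = 0.78 and rho = 0.65 (permutation p = 0.0441 and 0.0413, adjusted p = 0.451 and 0.446), and r was 0.62 without the 2 farthest libraries. With the same list Bok had r = 0.74 (permutation p = 0.0563, adjusted p = 0.451). Cpne4 went the other way, at r = -0.66 (permutation p = 0.0283, adjusted p = 0.423), and Nectin3 and Coch stood at 0.17 and -0.18. With the other CA3 genes r was -0.29 for Bok, -0.11 for Grik4, -0.23 for Nectin3, 0.23 for Cpne4 and 0.05 for Coch.

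Other genes of the same fields were compared beside the markers. Of 7 other CA2 genes (Necab2, Avpr1b, Stard5, Ptpn5, Fgf2, Ntf3 and Adora1), none was called for ELE in SIT, left or right, with median log2 fold changes of 0.29, 0.06 and 0.09. Of 6 other CA3 genes (Elavl2, Cdh24, Iyd, Socs2, Plagl1 and Galnt3), Plagl1 fell by 0.40 in SIT and none was called in left or right, with medians of -0.04, -0.06 and -0.06. Of 6 dentate granule cell genes 3 rose, Prox1 by 0.46, Dsp by 0.89 and Lct by 0.63 (edgeR adjusted p = 0.905 for each), with a median over the list of 0.38, where 3.61% of all genes were called. With all 8 SIT libraries 2 of the 6 were called, with a median of 0.31, beside 7.67% of all genes. Among the mice numbered NT6 1 was, with a median of -0.08, beside 6.61%. Of 7 CA1 genes Spink8 rose by 0.79. The dentate list summed to between 703 and 892 CPM in the SIT ELE mice and between 599 and 756 in the SIT sedentary mice, with no gene at 0. The choroid plexus list summed to between 128 and 576 CPM in SIT ELE mice against 584 to 669, and 3 of its 5 genes fell. By library, the choroid plexus list was at 128, 233 and 576 CPM in the ELE mice NT6.303, TG7.4.1 and TG7.4.2. Coch was at 0.999, 1.18 and 2.87 CPM in them. The list was at 584 and 669 CPM in the sedentary mice NT6.305 and NT6.306, and Coch at 3.79 and 3.82. Over the 17 libraries r of Coch with this list was 0.54 (permutation p = 0.105), and 0.27 without the 2 farthest libraries. The part of the dentate and choroid plexus lists in the SIT values of Cacng5 and Coch was not tested. In the right hippocampus Dock10 of the dentate list fell by 0.56 and no CA1 gene was called, and in the left none of the 14 lists had a called gene. In the isolation contrast Fgf2 and Adora1 of the other CA2 genes were lower in SIT, at -0.73 and -0.41, Plagl1 was higher by 0.50, Wfs1 of CA1 was lower at -0.49 and Stxbp6 of the dentate list was higher at 0.68. For the response to ELE by isolation, Stard5 of the other CA2 genes was called at 0.40, Spink8 at 0.58 and Dock10 at 0.59.

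The calls among lists of cells outside the pyramidal layer depended on the SIT libraries used. With all 8, all 6 inhibitory neuron genes, all 4 microglial genes, 4 of 5 choroid plexus genes and 2 of 4 oligodendrocyte genes fell and 1 of 4 astrocyte genes rose, beside 7.67% of genes called. Among the 5 libraries that the study compared, beside the choroid plexus genes given above, Pvalb of 6 inhibitory neuron genes fell by 1.17. In the right hippocampus, where the choroid plexus genes fell and 1.96% of all genes were called, Slc32a1 rose by 1.15, Prkcd of 4 thalamic genes rose by 0.62 and Cx3cr1 of 4 microglial genes fell by 1.65. Over both hemispheres Prkcd rose by 0.56 and Folr1 fell by 1.85, and in the response to ELE by side Rgs9 was called at -0.56. No excitatory neuron, astrocyte or oligodendrocyte gene was called for ELE in the 5 SIT libraries, left or right. In the isolation contrast, 4 of 6 inhibitory genes (Gad2, Slc32a1, Sst and Pvalb) were higher in SIT and 3 of 4 astrocyte genes (Aqp4, Slc1a3 and Aldh1l1), Camk2a and Adora2a were lower, where 14.1% of all genes were called. With all 8 SIT libraries all 6 inhibitory and all 4 microglial genes were higher in SIT, beside 12% of genes called. The part of these cells in the higher Pcp4 level of SIT was not tested.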

How the data were processed

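TRAP-seq of hippocampus was deposited for 20 Emx1-NuTRAP libraries, 1 mouse each, as 1 table of raw counts per gene. Before they deposited these counts, the authors aligned read pairs to GRCm38.p6 with STAR 2.7.3a, removed duplicates with Picard 1.87 and counted fragments over the exons of each gene by strand, keeping those that fit 1 gene. Removing duplicates can lower the highest counts. Another 24 columns, from wild-type mice, were not used. Library totals ran from 45895097 to 65767802, and intervals cover the spread between mice. Of 55335 identifiers 54587 matched GENCODE M21 with their version.

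Columns carry mouse numbers, which the study's own list ties to condition, isolation and side. Which 5 of 8 SIT libraries the study compared was found by matching the mean normalized counts of its tables: 1 of 24 subsets matched all 633 listed genes within 0.001 of their value, and the next best matched 7.

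Counts were scaled by TMM and tested with edgeR 4.0.16 (R 4.3.3; filterByExpr, glmQLFit, glmQLFTest), with Benjamini-Hochberg adjustment over all genes tested. The standard error is the absolute log2 fold change divided by the square root of F, and the 95% interval uses the t distribution with the fit's degrees of freedom. A gene was called at an unadjusted p under 0.05 with an absolute log2 fold change above 0.39. The test was tried on simulated counts first. Alternatives were DESeq2 1.42.0, its size factors, no filter, leaving out each library, all 8 SIT libraries, the mice numbered NT6 and a block for the first part of the mouse number. Correlations used log2(CPM + 0.5) minus the group mean, with two-sided p from 100000 permutations of values within groups.

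All 10 markers were tested in every comparison, but the text does not give the value of every marker in each. Values by library are given for the markers called in the main ELE comparisons. Called genes of the lists and the 3 genes most similar to each marker are named. Some called genes of the lists are not reported here. The markers and lists were chosen with earlier results of these data known, and the relations with the lists were added after the data had been seen.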

Additional observations from a re-analysis of the deposited data

Results flagged for a closer look

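Coch in the SIT ELE mice had 1 library far from the others. It was at 2.87 CPM in TG7.4.2 and between 0.971 and 1.18 CPM in the other 3 SIT ELE mice. The gap to the nearest mouse was 0.892 of the whole range, above Dixon's 95% critical value for 4 samples. Of 20 groups of 4 tested, 1 was flagged, and chance flags about 1 in 20. Without TG7.4.2 the SIT log2 fold change of Coch was -1.81 against -1.18 with it.

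Coch was also flagged for a response to ELE that differed between SIT and separate isolation, with an interaction of -1.66 on the log2 scale (SE 0.76, edgeR adjusted p = 0.890). It lay below 0 in all 17 fits that left out 1 library, between -2.28 and -1.01.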

How the results depend on the processing

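With DESeq2, its size factors and no filter, the number of markers called was that of the report in every comparison except exercise by isolation, where DESeq2 and no filter called 2, Cacng5 joining Coch, against 1. With all 8 SIT libraries, 0 markers were called for isolation, against 1. Apart from the fits that leave out 1 library, the values that turned sign included those of Pcp4 in SIT with the mice numbered NT6 (-0.44) and of Cacng5 with all 8 SIT libraries in SIT (-0.0418) and in exercise by isolation (-0.0875). The correlation of Pcp4 with Cacng5 also did (r = -0.17 with all 8 SIT libraries), as did values of markers that were not called, such as Coch in right with the replicate block (-0.09). Leaving out each library in turn gave between 0 and 1 called markers in SIT, left, both hemispheres and exercise by hemisphere, between 0 and 2 in right and exercise by isolation, 1 to 2 for isolation, 0 for hemisphere and 0 to 1 correlated pairs. The 1 pair was Bok with Grik4, without TG9.1.2 or TG7.3.4. Leaving out a SIT library gave SIT values between -0.00146 and 0.312 for Pcp4 and between -0.206 and 0.0882 for Amigo2, with NT6.306, which leaves 1 sedentary mouse, turning both signs. The causes were not tested. Across the alternatives that leave out no single library, the values of markers called in a comparison under at least 1 of them or in the report, and the correlations followed, kept their direction and side of the threshold in 49 cases, passed it anew in 5, no longer passed it in 4 and turned sign in 4.

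The first part of the mouse number was tried as a replicate block. It changed no call of a marker, with 2 called in right and 0 in the other hemisphere comparisons, and in right Bok had 0.41 and Amigo2 -0.50. The sources used here do not say what that number marks. The correlation of deviations in same-numbered mice of different groups ran from -0.13 to 0.64 over 18 pairs with a median of 0.04. Over 36 pairs of differently numbered mice it ran from -0.46 to 0.37 with a median of -0.00086. The number was not taken as a pairing, but these values do not show that it carries no information. Coch and Map3k15, with as few as 52 and 38 counts in a library, have the widest intervals and limit what could be seen for them.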
